A study of Mus musculus with 94 samples.

Results

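The G1 phase regulators examined here were 10 genes chosen by name: the D-type cyclins Ccnd1, Ccnd2 and Ccnd3, the kinases Cdk4, Cdk6 and Cdk2, the CIP/KIP inhibitors Cdkn1a, Cdkn1b and Cdkn1c, and Rb1. All 10 were among the 13244 genes of the deposited table. D cyclins bind Cdk4 and Cdk6, and the active kinases phosphorylate the retinoblastoma protein, which then releases E2F factors and lets a cell enter S phase with the help of Cdk2. CIP/KIP proteins inhibit Cdk2 complexes and help D cyclins to assemble with their kinases. In blood stem cells, Cdkn1c and Cdkn1b are known for keeping cells quiescent, Cdkn1a acts after DNA damage, and low Cdk6 is a known feature of long-term stem cells.

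Expression was measured by single-cell RNA sequencing in 94 mouse haematopoietic stem cells on the C57BL/6 background, of which 46 were labelled Ski-KO and 48 Ski-WT. Ski encodes a co-repressor of Smad signalling, and the series concerns early myelodysplastic syndrome. All cells were derived from fetal liver, had been transplanted for 6 months, and were sorted from hindlimb marrow as Cd45.2+ lineage-negative c-Kit+ Sca-1+ Cd48- Cd150+ cells, a gate known as SLAM. The Ski-KO cells carried the label prefixes 051716 (27 cells) and 051816 (19 cells), and the Ski-WT cells carried 061016. Every prefix belonged to a single genotype, and the effects of genotype and prefix cannot be told apart. The labels do not say which allele was used, how many animals gave the cells or what the prefixes stand for. With each genotype counted as 1 sample, there was no replicate check, no test was made, and every difference below is a description of these libraries.

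Levels are given as log2(TPM + 1), where TPM is the length-scaled share of a transcript in its cell, and a gene counted as detected in a cell at 5 TPM or more. The depth of each library is unknown. Ski itself did not check the labels: it was detected in 3 of 46 Ski-KO cells (up to 7.84) and 6 of 48 Ski-WT cells (up to 8.39), with a median of 0 in both, and the labels do not say which exons were removed. A median of 2094 genes per cell was detected in prefix 051716, 2288 in prefix 051816 and 2415.5 in the Ski-WT cells. Among genes of the gate and of stem cells, Kit was detected in 79 of 94 cells, Meis1 in 81 and Cd48, which the gate excluded, in 0. Of the 20 genes on that list, 14 were detected in at least 25% of cells. Other stem cell genes of the list were rare, with Tek in 10 cells, Fgd5 in 4 and Hoxb5 in 3. Mpo, a myeloid marker, was detected in 0 cells, while Lyz2 of the same list was detected in 56. A value of 0 in a cell does not show that the gene was silent, since Slamf1, which encodes the gate protein Cd150, was detected in only 11 cells.

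The members were detected in widely different shares of cells, in a graded order (the plot of levels by prefix). Ccnd2 was detected in 78 of 94 cells (83.0%, exact 95% interval 73.8% to 89.9%), Cdk4 in 74 (78.7%, 69.1% to 86.5%) and Cdkn1b in 63 (67.02%, 56.6% to 76.4%). Ccnd3 followed with 42 cells (44.7%, 34.4% to 55.3%), Cdk2 with 32 (34.04%, 24.6% to 44.5%) and Ccnd1 with 26 (27.7%, 18.9% to 37.8%). Detection was rarer for Cdkn1c, in 15 cells (15.96%, 9.22% to 24.95%), and for Cdk6, in 10 (10.6%, 5.22% to 18.7%). Rb1 was detected in 5 cells (5.32%, 1.75% to 11.98%) and Cdkn1a in 4 (4.26%, 1.17% to 10.5%). Among neighbours in this order, the intervals of Cdkn1b and Ccnd3 did not overlap, and those of all other neighbours did. That order depends on the limit, since at 50 TPM Cdkn1b was found in 25.5% of cells and Ccnd3 in 29.8%. The intervals cover counting error only.

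**Figure D1:**
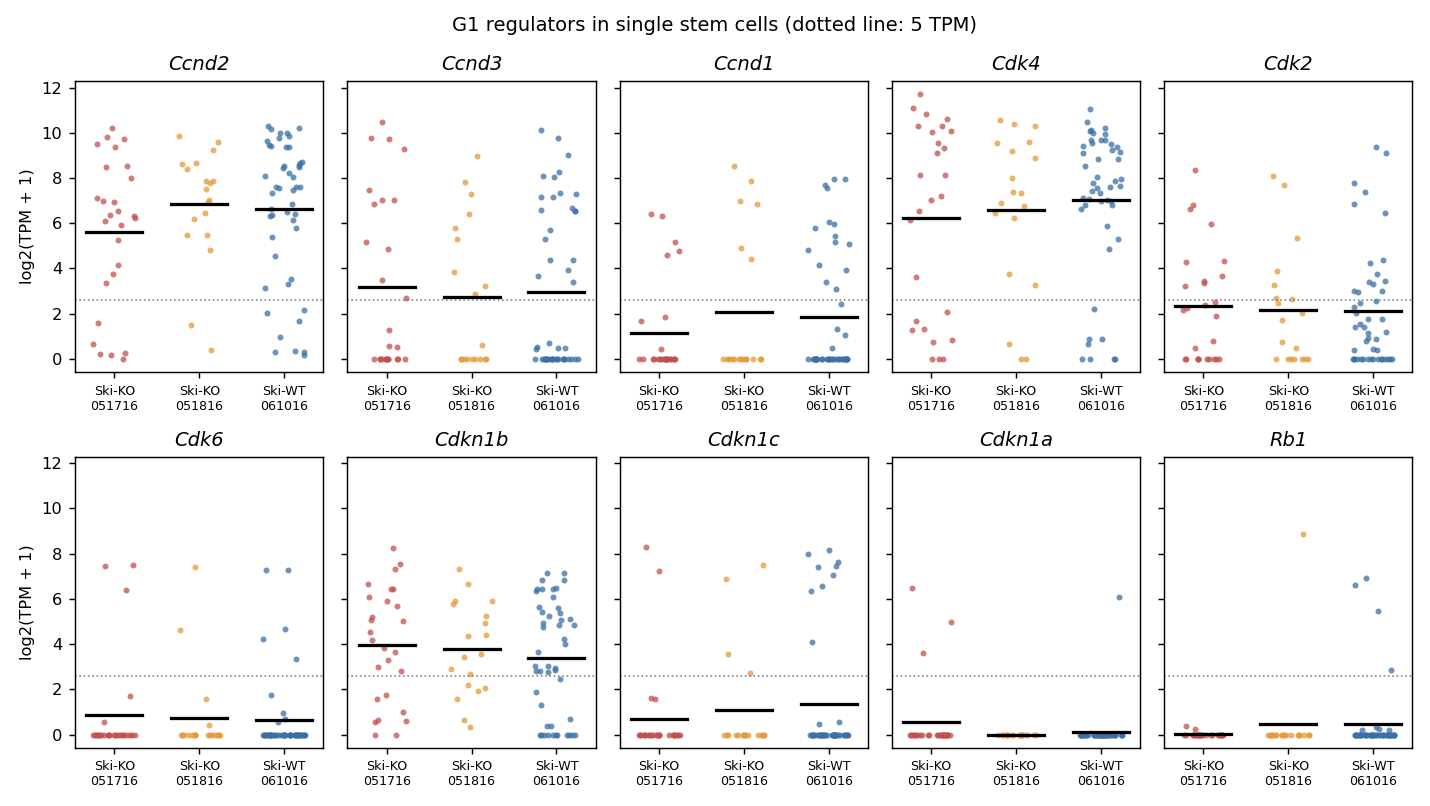
Level of the 10 members, as log2(TPM + 1) (vertical axes) by label prefix (horizontal axes). Points are single cells, black lines are means over the cells of a prefix, and the dotted line marks 5 TPM. Ccnd2, Cdk4 and Cdkn1b lay above that line in most cells, and Cdkn1a and Rb1 in 4 and 5 of the 94.

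Ccnd2 was the main D cyclin of these cells. Its log2 level ran from 0 to 10.2 with a median of 6.30 in prefix 051716, from 0.40 to 9.88 with a median of 7.50 in prefix 051816, and from 0.16 to 10.3 with a median of 7.57 in the Ski-WT cells. The 3 ranges overlapped almost fully. Among cells that had it detected, the median was 6.96, 7.78 and 8.07 in the same order. Ccnd2 was detected in 21 of 27, 17 of 19 and 40 of 48 cells, and only 1 of the 94 cells was at exactly 0. Mean Ccnd2 was 287 TPM over all cells, higher than 95.9% of the genes in the table.

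Ccnd3, the D cyclin known for its role in lymphoid and erythroid precursors, was either clearly present or close to 0. It was detected in 12 of 27 cells of prefix 051716, 9 of 19 of prefix 051816 and 21 of 48 Ski-WT cells. In those cells its median log2 level was 7.02, 5.78 and 6.65, and its range was 2.70 to 10.5, 2.87 to 8.98 and 3.40 to 10.1. These ranges overlapped, and the highest level was lower in prefix 051816. Of the other 52 cells, 43 were at exactly 0. Ccnd1, the D cyclin that mitogens induce in many tissues, was detected in 5, 6 and 15 cells of the same prefixes and never exceeded 8.55. Its mean over all cells was 25.7 TPM, against 106 TPM for Ccnd3.

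Of 94 cells, 11 had no D cyclin detected, 31 had 1, 41 had 2 and 11 had all 3. Ccnd2 alone was found in 28 cells, Ccnd2 with Ccnd3 in 27, and Ccnd2 with Ccnd1 in 12. Cells with a D cyclin but without Ccnd2 were few, with 2 for Ccnd3 alone, 1 for Ccnd1 alone and 2 for Ccnd1 with Ccnd3. The Ski-KO and Ski-WT cells had similar make-ups, with no D cyclin in 5 of 46 and 6 of 48 cells and all 3 in 5 and 6.

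The kinases differed widely from each other. Cdk4 had a mean of 472 TPM over all cells, Cdk2 33.6 TPM and Cdk6 10.6 TPM. Cdk4, the usual D cyclin partner, was detected in 18 of 27 cells of prefix 051716, 16 of 19 of prefix 051816 and 40 of 48 Ski-WT cells. In prefix 051716 fewer cells had Cdk4, but those that did had a median log2 level of 9.43, compared with 7.70 in prefix 051816 and 8.31 in the Ski-WT cells. The ranges among detected cells overlapped, at 3.64 to 11.7, 3.28 to 10.6 and 4.88 to 11.1. Cdk6, the other D cyclin partner, was detected in 3, 2 and 5 cells. Its highest value, 7.49, lay below the median of cells with Cdk4.

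Cdk2, which acts with E cyclins at the start of S phase, was detected in 10 of 27, 7 of 19 and 15 of 48 cells. It was low where present, with medians of 4.32, 3.87 and 4.22 and a highest value of 9.35. A further 29 cells held Cdk2 above 0 but under 5 TPM, more than for any other member, so its share depends on the limit, with 34.04% of cells at 5 TPM and 64.9% above 0. At least 1 D cyclin together with Cdk4 or Cdk6 was detected in 67 cells, close to the 66.2 that the separate shares give. Because each side was found in most cells, this number had little room to differ.

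Cdkn1b was the common inhibitor. Its log2 level ran from 0 to 8.27 with a median of 4.19 in prefix 051716, from 0.33 to 7.31 with a median of 3.57 in prefix 051816, and from 0 to 7.15 with a median of 3.35 in the Ski-WT cells. It was detected in 19 of 27, 13 of 19 and 31 of 48 cells. The medians in those cells were 5.21, 4.94 and 5.10, so its level among detected cells was nearly equal across prefixes. The cells at exactly 0 were 11 of 48 in the Ski-WT cells and 2 of 46 in the Ski-KO cells. Mean Cdkn1b was 35.7 TPM, against 287 TPM for Ccnd2.

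Cdkn1c, an imprinted gene, was found in few cells, with a higher median level there than Cdkn1b had. The 15 cells had a median log2 level of 7.25, above the 5.10 of the 63 cells with Cdkn1b. They were 2 of 27 in prefix 051716, 4 of 19 in prefix 051816 and 9 of 48 Ski-WT cells. Their medians were 7.76, 5.23 and 7.39 in the same order, so in prefix 051816 Cdkn1c was close to Cdkn1b (4.94). A further 4 cells lay between 0 and 5 TPM and the other 75 were at 0. Cdkn1a, the p53 target, was detected in 3 cells of prefix 051716, in 1 Ski-WT cell and in 0 of 19 cells of prefix 051816. A count of 0 there allows up to 15.8% of cells with Cdkn1a detected, taken as 3 cells, or 17.6% by the exact interval. Rb1 was detected in 0 of 27, 1 of 19 and 4 of 48 cells, and its mean of 24.3 TPM in prefix 051816 came from the 1 cell, at 463 TPM.

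In the Ensembl-based GENCODE annotation of GRCm38, a later build than the mm9 named for these data, exons of some members overlap genes on the opposite strand. Of those listed in the table, Tspan31 overlaps Cdk4, Bysl overlaps Ccnd3, Pmel overlaps Cdk2, and Lpar6 and Rcbtb2 overlap Rb1. The sources do not say that strand was used in counting, so reads from such partners cannot be told apart. Cdk4 was detected without Tspan31 in 43 of its 74 cells, Ccnd3 without Bysl in 36 of 42 and Cdk2 without Pmel in 31 of 32. Of the 5 cells with Rb1, 1 also had Lpar6 and 2 had Rcbtb2.

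The next comparison asked whether G1 regulators differed between the cells labelled Ski-KO and Ski-WT. Members were compared if 25% or more of Ski-KO or Ski-WT cells had them detected, which left 6, and a difference in mean log2 level of at least 0.5 with both Ski-KO prefixes on the same side was counted. Cdkn1b was higher in the Ski-KO cells, with means of 3.89 and 3.38 and a difference of 0.51, which was 0.58 in prefix 051716 and 0.40 in prefix 051816. Of the 3897 genes compared in the same way, 10.1% were higher. Cdk4 was lower in the Ski-KO cells, with means of 6.37 and 7.04 and a difference of -0.67, which was -0.83 and -0.45 in the same prefixes. The share of all genes that were lower was 36.1%, and the median over all 3897 genes was -0.31. With 1 of 6 members on each side, the members' counts were not set apart from this background. Their median difference was -0.13.

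Both calls depended on how the cells were averaged. For Cdk4 the linear means ran the other way, at 526 TPM for Ski-KO and 420 TPM for Ski-WT. With values under 5 TPM set to 0, Cdk4 was still counted and Cdkn1b was not. Neither was counted in prefix 051816 alone, where both differences were under 0.5 in size. Cdkn1b lay just inside the limit of 0.5 and Ccnd2, at -0.49, just outside. The Ski-KO prefixes disagreed for Ccnd2, with -0.997 in prefix 051716 and 0.22 in prefix 051816, and likewise for Ccnd1, with -0.71 and 0.22. Ccnd3 (0.05) and Cdk2 (0.13) differed little. The other 4 members did not pass the filter on low values: their differences were 0.18 for Cdk6, 0.20 for Cdkn1a, -0.47 for Cdkn1c and -0.27 for Rb1. With quantile normalization of the cells the median over all genes was -0.05, and 775 genes were higher and 942 lower, compared with 395 and 1405 on the deposited scale. Cdkn1b and Cdk4 were counted as higher and lower on both scales.

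**Figure D2:**
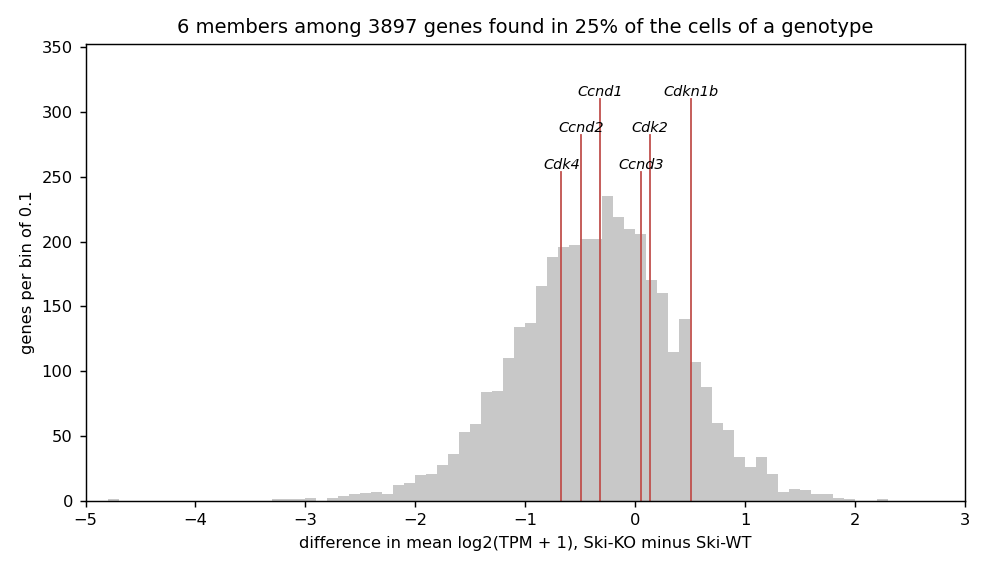
Difference in mean log2(TPM + 1) between Ski-KO and Ski-WT cells (horizontal axis) for 3897 genes, as the number of genes per bin of 0.1 (vertical axis). Red lines mark the 6 members that passed the filter. All 6 lay within the bulk of the genes, between -0.67 for Cdk4 and 0.51 for Cdkn1b.

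The wider G1 pathway was read from a list of 49 genes, of which 47 were in the table and 22 passed the filter. The D cyclin side of this list includes inhibitors of the INK4 family, E2F factors and their partners, the ubiquitin ligase that degrades Cdkn1b protein, and kinase chaperones. Of the 22 genes, 2 were higher and 7 lower in the Ski-KO cells, with a median difference of -0.19. Against 10.1% higher and 36.1% lower among all genes, these counts were near the background, and the genes are given as values only. Tfdp1, which encodes a dimer partner of E2F factors, differed by 0.52 (0.29 and 0.84 in prefixes 051716 and 051816) and Btg2, an antiproliferative gene, by 0.74 (0.83 and 0.63). Among the lower genes, Cdc37, a co-chaperone that delivers Cdk4 to Hsp90, differed by -1.15, with -1.82 in prefix 051716 and -0.21 in prefix 051816. Hsp90ab1, which encodes that chaperone, differed by -0.59 (-0.62 and -0.56 in the same prefixes). Cul1, the scaffold of the SCF ubiquitin ligases, had -1.32 (-1.71 and -0.77) and Rbbp4, which binds the retinoblastoma protein, -0.90 (-1.17 and -0.53). Gsk3b, a kinase gene linked to D cyclin turnover, had -1.32 (-1.32 and -1.33). Mycn had -0.51 (-0.70 and -0.24) and Trp53 -0.91 (-1.40 and -0.21), so the prefixes differed in size for these as for Cdc37. The 4 genes of the list with the most cells were Skp1a and Hsp90ab1 in all 94, Gsk3b in 83 and Trp53 in 77. E cyclins were scarce, with Ccne1 detected in 3 cells and Ccne2 in 8, and the INK4 genes Cdkn2d and Cdkn2c were detected in 30 and 7.

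Genes that act after G1 were read from lists of 68 mitosis and 51 DNA replication genes. Of the mitosis list, 9 genes passed the filter, 0 were higher and 5 were lower in the Ski-KO cells (10.1% and 36.1% of all genes), with a median of -0.64. These were Smc2, a condensin subunit gene (-1.02), Bub3, a spindle checkpoint gene (-0.92), Cks2 (-0.88), Pttg1, which encodes securin (-0.69), and Top2a (-0.64). Pttg1 (11 of 46 Ski-KO and 16 of 48 Ski-WT cells) and Top2a (11 and 13) passed the filter only through the Ski-WT cells. For these 2 the filter itself favoured a lower call. Kif20b (10 and 12, difference -0.20), which was not counted, also passed only through the Ski-WT cells. The median of -0.64 is the value of Top2a itself. With only 9 genes and calls favoured by the filter, the count and the median are not read as a result about mitosis genes. All 5 counted genes were lower in both prefixes, as the rule required. Top2a differed most between the prefixes, with -0.19 in prefix 051716 and -1.28 in prefix 051816. The 4 mitosis genes with the most cells were Spc24 in 92, Stmn1 in 88, Smc4 in 49 and Bub3 in 46. The median number of genes detected per cell was also lower in both Ski-KO prefixes, at 2094 and 2288 against 2415.5, and its part in these differences was not tested.

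Of the DNA replication list, 28 genes passed the filter, 1 was higher and 8 were lower, with a median of -0.04. Among all genes 10.1% were higher and 36.1% lower, so neither count exceeded the background, and the genes are given as values only. Pola1, a DNA polymerase alpha gene, was higher by 0.70. The lower genes were the clamp loader gene Rfc2 (-1.24), the helicase genes Mcm3 (-0.99) and Mcm7 (-0.67), the primase gene Prim1 (-0.69), Pold2 (-0.66), Rpa1 (-0.64), the thymidylate synthase gene Tyms (-0.59) and Slbp (-0.59). Prim1 (10 of 46 Ski-KO and 14 of 48 Ski-WT cells) and Pold2 (11 and 17) passed the filter only through the Ski-WT cells. Pola1 (12 and 9) passed only through the Ski-KO cells. The filter itself thus favoured the calls of these 3 genes. For Mcm7 the difference was -1.12 in prefix 051716 and -0.03 in prefix 051816. Pola2 was detected in 80 cells, Tyms in 75, Pcna in 56 and Rfc2 in 55.

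Cyclins and inhibitors were next compared within the same cell. A cell with at least 1 D cyclin and at least 1 CIP/KIP inhibitor was the usual case, found in 59 of 94 cells (62.8%, interval 52.2% to 72.5%). The shares multiplied within each prefix give 59.2 cells. D cyclins without an inhibitor were found in 24 cells, an inhibitor without a D cyclin in 8, and neither in 3. The observed number was thus close to the number that independent detection gives. With a D cyclin in 83 cells and an inhibitor in 67, little other overlap was possible, so the match does not show independence.

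The most frequent pair was Ccnd2 with Cdkn1b. Both were detected in 52 cells against 52.2 expected, with 15 against 14.8 in prefix 051716, 12 against 11.6 in prefix 051816 and 25 against 25.8 in the Ski-WT cells. Cells with Ccnd2 alone of this pair numbered 26, with Cdkn1b alone 11 and with neither 5. With Ccnd2 in 78 cells and Cdkn1b in 63, this overlap too had limited room to differ from the expected number. In the 52 cells with both, the rank correlation of their levels was 0.13, so cells with more Ccnd2 had neither clearly more nor clearly less Cdkn1b.

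Ccnd3 was found with Cdkn1b in 31 cells against 28.2 expected, or 1.1 times as many. Of 2674 genes detected in 25% to 75% of cells, 16% reached a ratio of 1.1 with Cdkn1b, and 0% had 0.5 or less. The prefixes differed, with 9 against 8.44 in prefix 051716, 5 against 6.16 in prefix 051816 and 17 against 13.6 in the Ski-WT cells. Ccnd1 was found with Cdkn1b in 17 cells against 17.3 expected. Ccnd2 with Cdkn1c was found in 12 cells against 12.6, and Ccnd1 with Cdkn1c in 4 against 4.45.

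The D cyclin and inhibitor pair with the lowest ratio was Ccnd3 with Cdkn1c. They were detected together in 3 cells, while 6.72 were expected from 42 cells with Ccnd3 and 15 with Cdkn1c, a ratio of 0.45. Ratios of 0.5 or less with Cdkn1c were reached by 3.74% of 2675 genes, and ratios of at least 1.1 by 37.9%. The shortfall lay in the Ski-WT cells, with 1 against 3.94, and in prefix 051716, with 0 against 0.89, while prefix 051816 had 2 against 1.89. The ratio stayed under 1 at other limits, with 7 cells against 10.3 above 0 TPM, 2 against 5.67 at 10 TPM and 2 against 3.62 at 50 TPM. The count is small, and the interval on 3 of 94 cells, 0.66% to 9.04%, includes the 6.72 cells expected. That interval takes the expected number as fixed, although it comes from the same cells, so it cannot decide whether the shortfall is real. Cells with Cdkn1c alone of this pair had a median of 2512.5 detected genes and those with Ccnd3 alone 2468.

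Cdkn1a was too rare for its pairs to be read. Of its 4 cells, all 4 held Cdkn1b and 3 held each of Ccnd1, Ccnd2 and Ccnd3. Cdk2 and Cdkn1a shared 0 cells, against 1.42 expected, and Cdk2 with Rb1 shared 0 against 1.62. Over 2675 genes the 5th percentile of the ratio with Cdkn1a was also 0, so such a lack of overlap was not particular to Cdk2. Cdk2 with Cdkn1c shared 8 cells against 5.03, a ratio of 1.59, where the 95th percentile over 2675 genes was 1.49. These pairs were picked out after their values were seen.

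**Figure D3:**
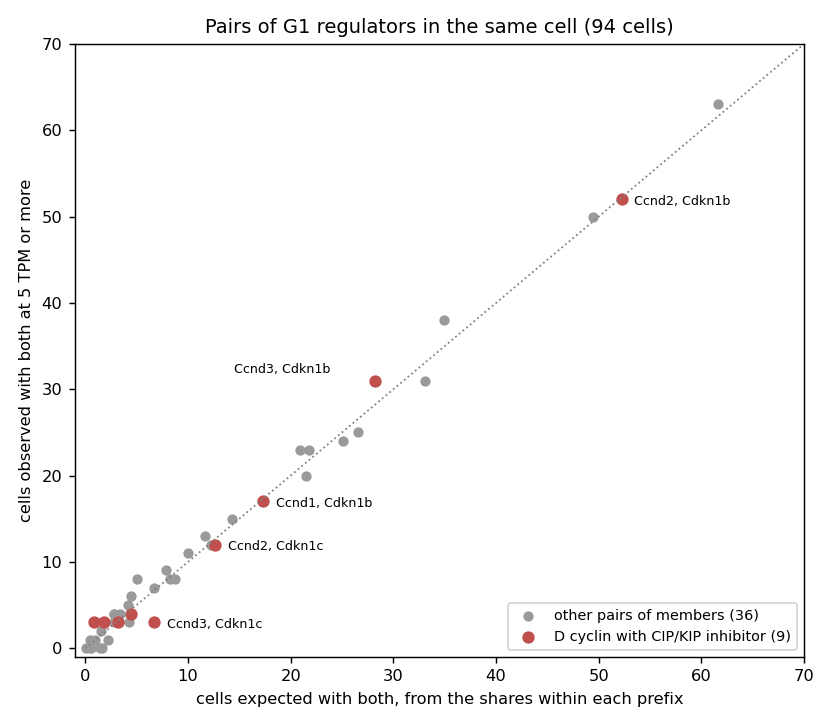
Number of cells observed with both genes at 5 TPM or more (vertical axis) against the number expected from the shares within each prefix (horizontal axis). Each point is a pair of members, red points are the 9 pairs of D cyclin and inhibitor, and the dotted line marks equal numbers. Ccnd2 with Cdkn1b lies on the line at 52, and Ccnd3 with Cdkn1c lies below it at 3.

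The members were then related to the number of mitosis genes per cell. Of 68 mitosis genes, between 2 and 61 were detected per cell, with a median of 5. The low counts came largely from Spc24 and Stmn1, which were detected in 92 and 88 cells. For a comparison of classes, 77 cells at 12 or fewer were set against 17 cells at 14 or more, of which 9 were Ski-KO (7 in prefix 051716 and 2 in prefix 051816) and 8 Ski-WT. This boundary was set after the counts were seen, and the counts show no clear break there: 8 cells lay between 10 and 17. Cells with 14 or more mitosis genes also had more detected genes, with a median of 3147 against 2249, and more of the 51 DNA replication genes, with a median of 29 against 8. The part of the number of detected genes in the differences below was not tested beyond the correlations given.

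Cdk4 and Cdk2 were detected more often in the 17 cells with many mitosis genes. Cdk4 was found in 16 of 17 (94.1%, interval 71.3% to 99.9%) and in 58 of 77 of the other cells (75.3%, 64.2% to 84.4%). Cdk2 was found in 8 of 17 (47.1%, 22.98% to 72.2%) and 24 of 77 (31.2%, 21.1% to 42.7%), and its median among detected cells was 5.17 against 3.81. Cdk6 was found in 4 of 17 and 6 of 77. The intervals overlapped for each of the 3 kinases.

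Of the D cyclins, Ccnd2 had a lower share in the cells with many mitosis genes, while Ccnd3 and Ccnd1 had higher shares. Ccnd2 was found in 12 of 17 (70.6%, 44.04% to 89.7%) and 66 of 77 (85.7%, 75.9% to 92.6%), and Cdkn1b in 12 of 17 (70.6%) and 51 of 77 (66.2%). So 12 of the 17 cells with many mitosis genes still held the mRNA of this inhibitor, at a median log2 level of 4.73 against 5.24 in the other cells that had it. Ccnd2 together with Cdkn1b was found in 8 of the 17 (47.1%) and 44 of the 77 (57.1%). Ccnd3 was found in 9 of the 17 (52.9%, 27.8% to 77.02%) and 33 of the 77 (42.9%, 31.6% to 54.6%), and Ccnd1 in 6 (35.3%, 14.2% to 61.7%) and 20 (25.97%, 16.6% to 37.2%). The intervals of the 2 classes overlapped for each D cyclin and for Cdkn1b. Cdkn1c was found in 3 and 12 cells, and Rb1 in 0 and 5.

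**Figure D4:**
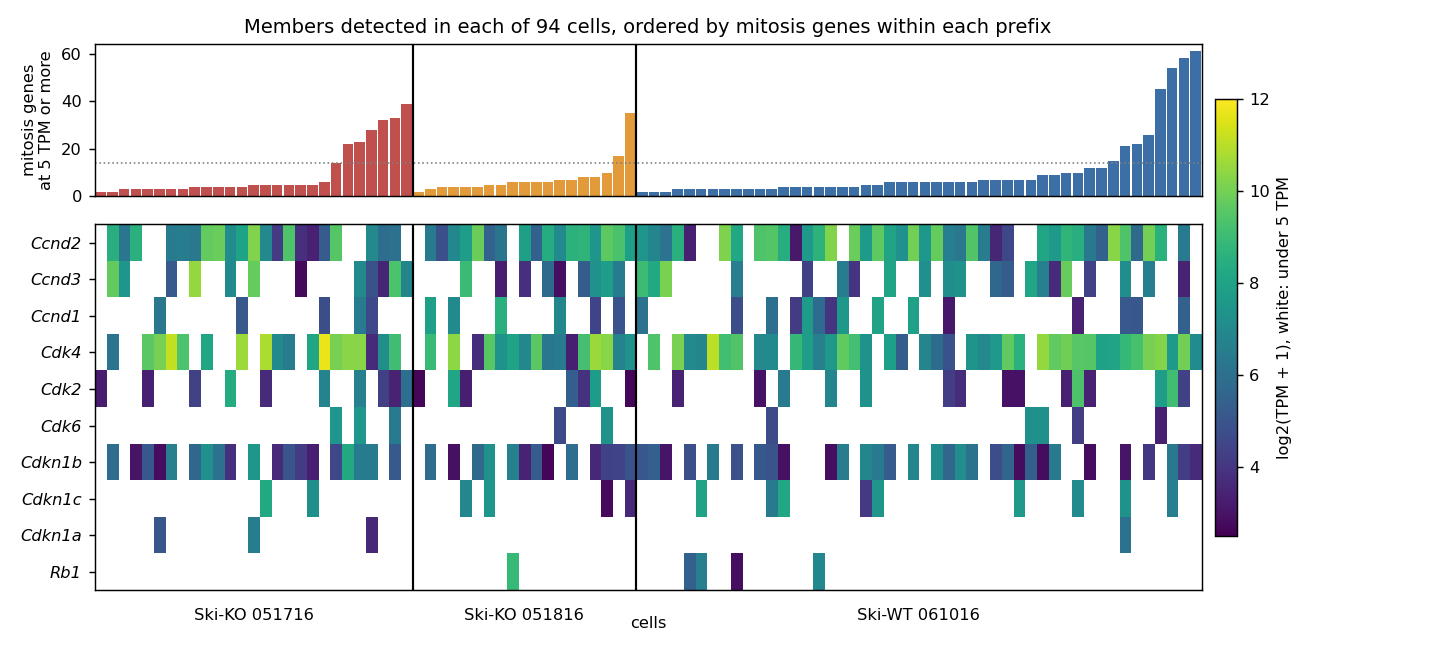
The 10 members in each of the 94 cells. The upper panel gives the number of mitosis genes at 5 TPM or more per cell, with a dotted line at 14, and the lower panel the log2(TPM + 1) of each member, white where it is under 5 TPM. Cells are ordered by mitosis genes within each prefix. Cdk4 is filled in 16 of the 17 cells at 14 or more, and Cdkn1b in 12 of them.

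Over all 94 cells, ranked within prefixes, the correlation with the number of mitosis genes was highest for Cdk2, at 0.32, with 0.43 in prefix 051716, 0.23 in prefix 051816 and 0.29 in the Ski-WT cells. Cdk4 had 0.28 (0.18, 0.31 and 0.32) and Cdk6, in 10 cells, 0.21. The D cyclins had 0.15 for Ccnd3, 0.04 for Ccnd2 and 0.01 for Ccnd1, and Cdkn1b had 0.04. The value for Ccnd2 differed between prefixes, with -0.12, 0.51 and -0.05. Of 3171 genes detected in at least 25% of cells, 26% had a correlation of at least 0.2, and the median was 0.11, so the 2 of 6 members in that group that reached it were not set apart from the background. Mitosis genes and detected genes per cell were themselves correlated, at 0.68. Given the number of detected genes, the value was 0.23 for Cdk2, higher than for 96.9% of those genes, 0.10 for Cdk4 and 0.01 for Cdkn1b, and 4.6% of the genes reached 0.2. With the 17 cells left out, and without regard to the number of detected genes, Cdk2 had 0.28 and Cdk4 0.23. The share of all genes reaching such values in the remaining cells was not computed. The points are cells of the same 3 prefixes that differ in their number of detected genes.

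**Figure D5:**
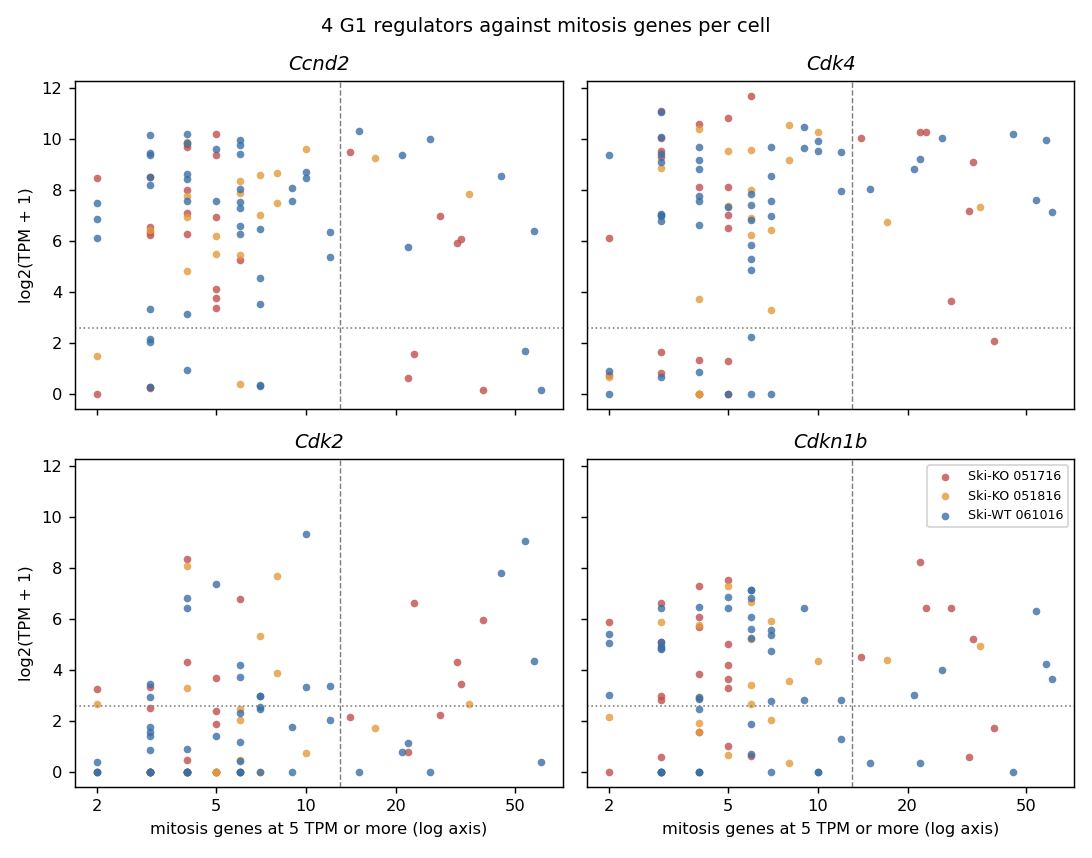
Level of 4 members (vertical axes, log2(TPM + 1)) against the number of mitosis genes at 5 TPM or more in the same cell (horizontal axes, logarithmic). Points are cells coloured by prefix, the dotted line marks 5 TPM and the dashed line separates 12 or fewer from 14 or more mitosis genes. Cdk4 lies above 5 TPM in 16 of the 17 cells on the right, and Ccnd2 and Cdkn1b in 12 each.

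For each of the 6 members detected in at least 25% of cells, the genes most like it were sought. They were sought among the other 3170 genes with such a share, by the same rank correlation over 94 cells. The likest genes of Cdk2 were Tuba1b, an alpha-tubulin gene (0.41), Top2a, a DNA topoisomerase gene (0.38), and Mcm7, a subunit of the replicative helicase (0.37). All 3 were above 0.29 in each prefix. Tuba1b, Top2a and Mcm7 were also correlated with the number of detected genes per cell (0.53, 0.58 and 0.43), as was Cdk2 (0.23). The part of that number in these values was not tested. Cdk4 was most like Psmc5, a proteasome ATPase gene (0.43), Hint1 (0.37) and Hnrnpk, an RNA-binding protein gene (0.36). Cdkn1b was most like Cyfip1 (0.37), Dgkz (0.36) and Cdc37 (0.33).

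Ccnd1 was most like Actn4, an actinin gene (0.43), Ywhab (0.38) and Ndufa10 (0.37), and Ccnd3 most like Clcc1 (0.33), Rab18 (0.32) and Vamp3 (0.32). Ccnd2 was most like Pf4, which encodes platelet factor 4 (0.38), Surf4 (0.37) and Ap1s1 (0.35). For Pf4 the value was 0.11 in prefix 051716, 0.50 in prefix 051816 and 0.48 in the Ski-WT cells. Pf4, Surf4 and Ap1s1 were also correlated with the number of detected genes per cell (0.37, 0.29 and 0.36), as was Ccnd2 more weakly (0.11). Among the likest genes of all members, the correlation with that number ran from 0.02 for Rab18 to 0.58 for Top2a, and its part was not tested. Pf4 is a megakaryocyte marker and was detected in 29 cells. Of 11 genes on the megakaryocyte list, 3 were detected in at least 25% of cells and Vwf was detected in 5 cells. The summed log2 level of that list ranged from 0 to 36.1 in prefix 051716, 4.72 to 37.7 in prefix 051816 and 0 to 43.2 in the Ski-WT cells, and its part in the level of Ccnd2 was not tested. Within single prefixes the values of the likest genes ran from -0.03 (Ccnd3 with Vamp3 in prefix 051716) to 0.73 (Cdkn1b with Dgkz in prefix 051816). Over all cells the highest was 0.43, and with 3170 genes compared for each member such values are a description only.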

How the data were processed

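Single cells were captured on the Fluidigm C1 system, cDNA was made with the SMARTer kit and libraries with Nextera XT, per the labels' protocols. The submitters' processing notes list Bowtie2, RSEM and the build mm9, with no version or role. The values the authors deposited were on a log2(TPM + 1) scale, and the back-transformed total per cell was 997625 to 999995. Such values keep no sequencing depth, so shares of cells carry exact Clopper-Pearson 95% intervals that cover counting error between cells only. No member had a row identical to that of another gene, and the highest correlation of any 2 cells was 0.53, so none held the same values.

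Groups came from the sample titles and prefixes from the descriptions. Each genotype counted as 1 sample and no test was made. No cell was filtered out and no doublet caller was run. The expected number of cells with 2 genes was the product of their shares within each prefix, summed over prefixes. Correlations were Pearson correlations of ranks taken within prefixes. The members, the gene lists and the rules were chosen with earlier results of these data known. All members were named, with the genes of the pathway, mitosis and DNA replication lists that met the limit of 0.5, the 4 of each list detected in the most cells and the 3 likest genes of each common member. E cyclin and INK4 genes were named after their values were seen. The calculations were tested on simulated data. Calculations used scipy 1.17.1, pandas 2.3.3 and numpy 2.4.6 in Python 3.11.15, with matplotlib 3.10.9 for plots.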

Additional observations from a re-analysis of the deposited data

How the results depend on the processing

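The number of members in at least 25% of cells changed little with the limit, but their shares did. There were 6 of 10 detected in at least 25% of cells at limits of 0, 1 and 5 TPM, 5 at 10 TPM and 4 at 50 TPM. Cdkn1b was found in 86.2% of cells above 0 TPM, 53.2% at 10 TPM and 25.5% at 50 TPM, where it was below Ccnd3 (29.8%). Of 40 shares at other limits, 14 left the interval of the share at 5 TPM. The number of members counted as higher or lower in the Ski-KO cells, 2 on the deposited scale, changed more. It was 0 with a pseudocount of 10 TPM (Cdkn1b 0.20, Cdk4 -0.40) and 0 in prefix 051816 alone (0.40, -0.45). It was also 0 with detected genes as a covariate, where Cdkn1b was 0.499 against 0.505 and Cdk4 -0.36 against -0.67. It was 1 with values under 5 TPM set to 0 (Cdk4), 1 with the log2 ratio of mean TPM (Cdk2, lower) and 4 in prefix 051716 alone, where Ccnd1 and Ccnd2 were added as lower. Ccnd1 passed the filter only through the Ski-WT cells, with 15 of 48 against 11 of 46 Ski-KO cells. With the log2 ratio of mean TPM the direction of Cdk4 was reversed, at 0.32. The causes were not tested. Of the other G1 pathway genes, 9 were counted on the deposited scale, 5 with that ratio, 4 with the pseudocount of 10 TPM and 14 in prefix 051716 alone. Over all 3897 genes, 395 were higher and 1405 lower on the deposited scale. The counts were 657 and 986 with that ratio, 664 and 1063 with the covariate, and 210 and 857 with the pseudocount of 10 TPM. They were 736 and 1498 in prefix 051816 alone, and 529 (13.6%) and 1746 (44.8%) in prefix 051716 alone. The counts of members and of other G1 pathway genes in prefix 051716 alone were near these shares. The ratio of observed to expected cells with a D cyclin and an inhibitor ranged from 0.96 to 1.01 over all 6 alternatives. At 5 TPM this ratio had little room to move, since D cyclins and inhibitors were each found in most cells. Above 0 TPM, Ccnd2 was found in 93 of 94 cells. Of all 10 members, 3 had a correlation of at least 0.2 with mitosis genes, including Cdk6, which was detected in only 10 cells. Given the number of detected genes, it was 1 (Cdk2). Among genes detected in at least 25% of cells, 26% reached 0.2, and 4.6% did given the number of detected genes. The 3 members were thus not set apart from the background. A planned comparison of cells without any mitosis gene was not run, because every cell held at least 2. The restriction to cells with 12 or fewer mitosis genes and to mitosis genes found in under 50% of cells was added after seeing the data. No paired analysis was possible because no result comes from a test and cell numbers do not pair cells. Unknown depth limits what an undetected gene in a cell can show.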
